A study of Mus musculus with 8 samples.

Results

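Venous and lymphatic endothelial genes were examined in sorted mouse blood precursors in which the transcription factor SOX7 could be switched on. The set was 8 named genes: Nr2f2, Aplnr, Prox1, Lyve1, Pdpn, Flt4, Stab1 and Stab2. A gene was taken up where an Affymetrix probe set was annotated to it and to no other gene, and the probe set with the highest mean over the 8 arrays stood for a gene with several. By this rule 7 of the 8 genes were measured, out of 14683 genes named by a probe set with 1 symbol. Flt4, the VEGF-C receptor VEGFR-3, had no value of its own, because its probe set carried 6 gene symbols, the others being olfactory receptor genes.

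The cells came from iSOX7, a single line derived from Ainv18 mouse embryonic stem cells, so every group carried the doxycycline-inducible Sox7 transgene. FLK1+ cells of embryoid bodies at day 3 were held for 3 days in liquid blast culture with VEGF at 5 ng/ml and IL6 at 10 ng/ml. CD41+ CD34- cells were then sorted and cultured without doxycycline (untreated) or with it (treated) for 12 h or 24 h, with 2 samples in each of the 4 groups. No transgene-free cells under doxycycline were analysed here, so the drug and SOX7 cannot be told apart. The strain of the line is not given here, and no animal or animal age applies to this culture.

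Vein and lymphatic identity are set in sequence during development. The nuclear receptor NR2F2 (COUP-TFII) holds endothelium in a venous state and restrains Notch signalling. In a subset of embryonic vein cells it acts with SOX18, a SoxF relative of SOX7, to turn on Prox1, the homeobox gene that specifies lymphatic endothelium. LYVE1, a hyaluronan receptor, podoplanin (Pdpn), which binds CLEC-2 on platelets, and VEGFR-3 mark the resulting vessels. Stabilin-1 and stabilin-2 are scavenger receptors of lymphatic and sinusoidal endothelium. Several of these genes are also active outside vessels: Lyve1 and Stab1 in macrophages, Pdpn and Nr2f2 in mesenchyme, Prox1 in liver and heart, and Aplnr, the apelin receptor, in early mesoderm as well as veins.

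Because doxycycline switches on a SOX factor and the title of the series pairs SOX7 with ETS factors, the promoters of the members were read for core letters of both families. RefSeq promoter windows (GRCm38.p6, 250 bases before to 50 after a transcript start) were matched by symbol for 6 of the 8 genes, Aplnr and Lyve1 being the others. ACAAT or ACAAAG was searched for SOX and CCGGAA or CAGGAA for ETS, on both strands. No window of a member held both motifs, so a SOX match could not overlap an ETS match. Of 32851 windows of this length, 42.9% held the SOX letters and 41.4% the ETS letters. The windows shown are those of Prox1, Stab1 and Pdpn. Prox1 and Stab1 had the largest differences upward under doxycycline at 12 h and 24 h. Pdpn had no unadjusted p under 0.05 in any comparison, which was also true of Nr2f2, whose window is not shown. Each window is written 5′ to 3′ on the strand of the gene, here the minus strand, with the matches in capitals.
Prox1, first start, chr1:190170778-190171077: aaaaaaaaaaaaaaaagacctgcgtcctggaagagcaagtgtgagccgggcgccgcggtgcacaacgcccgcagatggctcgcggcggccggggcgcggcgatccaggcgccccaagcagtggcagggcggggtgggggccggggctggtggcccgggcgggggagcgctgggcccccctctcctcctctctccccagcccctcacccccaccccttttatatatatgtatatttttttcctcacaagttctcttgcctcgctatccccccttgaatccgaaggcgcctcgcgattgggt
Prox1, second start, chr1:190169466-190169765: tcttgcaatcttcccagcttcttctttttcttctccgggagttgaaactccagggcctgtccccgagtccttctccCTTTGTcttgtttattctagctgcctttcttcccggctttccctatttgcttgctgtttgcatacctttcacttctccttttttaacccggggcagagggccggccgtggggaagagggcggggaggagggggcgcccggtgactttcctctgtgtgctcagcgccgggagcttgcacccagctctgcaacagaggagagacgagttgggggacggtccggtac
Stab1, chr14:31168592-31168891: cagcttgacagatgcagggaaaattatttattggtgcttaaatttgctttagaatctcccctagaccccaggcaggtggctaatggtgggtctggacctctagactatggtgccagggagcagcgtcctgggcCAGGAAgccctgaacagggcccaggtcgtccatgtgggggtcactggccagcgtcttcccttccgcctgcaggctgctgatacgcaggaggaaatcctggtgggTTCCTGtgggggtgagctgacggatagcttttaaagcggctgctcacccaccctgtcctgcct
Pdpn, chr4:143299515-143299814: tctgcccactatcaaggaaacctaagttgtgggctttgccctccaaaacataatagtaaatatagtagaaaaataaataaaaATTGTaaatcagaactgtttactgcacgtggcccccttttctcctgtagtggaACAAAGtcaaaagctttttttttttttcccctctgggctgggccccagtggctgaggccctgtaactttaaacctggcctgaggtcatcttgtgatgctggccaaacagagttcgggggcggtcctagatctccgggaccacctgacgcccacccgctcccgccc
The window at the first Prox1 start held neither motif, and the second held 1 SOX match that began 174 bases upstream. Stab1 had 0 SOX and 2 ETS matches, beginning 117 and 13 bases upstream. Pdpn had 2 SOX matches, beginning 168 and 115 bases upstream, and 0 ETS matches. In the windows not shown, Stab2 had 1 ETS match, and Nr2f2 and Flt4 had neither motif. These are letters in a window, and binding was not measured.

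All values are log2 expression on the RMA scale, where 1 unit is a doubling, and differences are log2 differences ± standard error from limma over all 16348 probe sets. Adjusted p is Benjamini-Hochberg over all of them, a gene passed at an adjusted p under 0.05, and intervals are 95%. No detection calls were used, so whether a dim probe set such as that of Stab2 was above background is not known. The sources do not say whether the 2 samples of a group are separate cultures. The p-values cover only how far these samples spread, and that spread may be technical. Array medians ran from 6.40 to 6.61, and the untreated replicate 2 array at 24 h was the farthest from the others: its values had an SD of 2.355, that of the 7 others being 2.433 to 2.517. Sox7 rose 14.9-fold at 12 h and 13.1-fold at 24 h (adjusted p = 0.000387 and 0.000554, limma). The genes of the sorting gate were read after the 12 h or 24 h of culture that followed the sort. Over the 8 arrays Itga2b (CD41) read 9.27 to 10.89 and Cd34 9.18 to 10.78. Cd34 message thus lay above the upper quartile of every array (8.19 to 8.57), although the sort took CD34- cells. The reason was not tested.

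Without the replicate number in the fit, none of the 7 measured members passed in any of the 6 comparisons. These were doxycycline at 12 h, at 24 h and over both times, 24 h against 12 h in each treatment, and the doxycycline effect between the times. With the replicate number as a block, Lyve1 passed at 12 h and Stab1 over time in treated cells (adjusted p = 0.0492 and 0.0307, limma). The counts, standard errors and intervals that follow are those without the block, except where it is named. With doxycycline at 12 h, 0 of 7 passed against 0.924% of all probe sets, and 2 of 7 had an unadjusted p under 0.05, against 8.85% of all. Those were Lyve1, lower, and Prox1, higher. At 24 h 0 of 7 passed against 1.44% of all, and 1 of 7 had an unadjusted p under 0.05, against 11.4%. That gene was Stab1, higher. Over both times, 4 arrays with against 4 without, 0 of 7 passed against 4.42% of all probe sets, and 1, Lyve1, had an unadjusted p under 0.05, against 15.6%. The median difference of the members was 0.04 at 12 h, -0.14 at 24 h and -0.04 over both times. Over all probe sets it was -0.01 in each of these comparisons. In the difference between the doxycycline effects at 24 h and 12 h, 0 of 7 and 0% of all probe sets passed, and 0 of 7 had an unadjusted p under 0.05, against 3.09%.

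**Figure D1:**
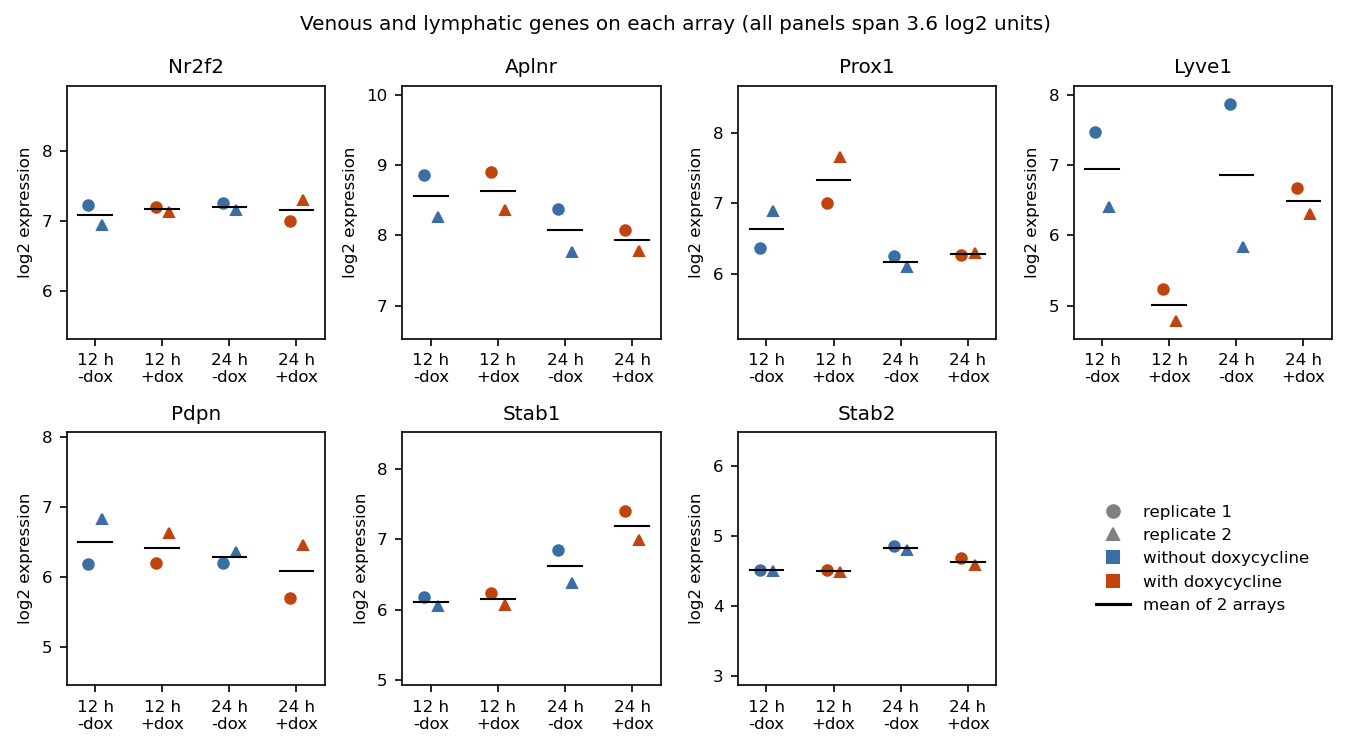
Log2 expression (y axis) of the 7 measured genes on each array, by time and treatment (x axis). Circles are replicate 1, triangles replicate 2 and bars the mean of 2 arrays, and every panel spans the same number of log2 units. Lyve1 covers 4.78 to 7.88, Prox1 peaks with doxycycline at 12 h, Stab1 is highest with doxycycline at 24 h, and Nr2f2 stays within 6.94 to 7.30.

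Nr2f2, the venous regulator, was nearly flat. The untreated arrays at 12 h (replicate 1, then 2, here and below) read 7.22 and 6.94 and the treated ones 7.20 and 7.13, and at 24 h untreated arrays read 7.25 and 7.15 and treated ones 7.0 and 7.30. All 4 groups overlapped, and the range of 0.36 was smaller than that of most probe sets (15.4% had a smaller one). The difference with doxycycline was 0.09 ± 0.17 at 12 h (interval -0.30 to 0.47, adjusted p = 0.986, limma) and -0.05 ± 0.17 at 24 h (interval -0.44 to 0.34, adjusted p = 0.984). A second Nr2f2 probe set, at 2.54 to 3.24, gave 0.05 ± 0.20 and -0.27 ± 0.20 (adjusted p = 0.995 and 0.776).

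Aplnr, the receptor for apelin, was lower at the later time in both treatments and showed little difference with doxycycline. Untreated arrays at 12 h gave 8.86 and 8.26 and treated ones 8.90 and 8.36, while at 24 h untreated arrays gave 8.38 and 7.76 and treated ones 8.08 and 7.78. In each group replicate 1 was the higher array. In treated cells both arrays at 24 h lay below both at 12 h, a difference of -0.70 ± 0.30 (unadjusted p = 0.0508, adjusted p = 0.731, limma), and in untreated cells the groups overlapped at -0.49 ± 0.30 (adjusted p = 0.812). The differences with doxycycline were 0.07 ± 0.30 at 12 h and -0.14 ± 0.30 at 24 h (adjusted p = 0.995 and 0.967). Apln, the gene of the ligand apelin, ran the other way in time, from 4.78 to 5.23 over the 12 h arrays to 5.77 to 6.25 over those at 24 h. Apln differed by 0.03 ± 0.15 with doxycycline over both times (adjusted p = 0.97).

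Prox1, the lymphatic fate gene, was highest in treated cells at 12 h, with no such height at 24 h. At 12 h it read 6.37 and 6.89 on untreated and 7.0 and 7.66 on treated arrays, and at 24 h 6.25 and 6.09 on untreated and 6.27 and 6.29 on treated arrays. At 12 h the treated arrays lay above the untreated ones by 0.63 in replicate 1 and 0.77 in replicate 2. The fitted difference was 0.70 ± 0.25 (1.62-fold, interval 0.11 to 1.29, unadjusted p = 0.0262, adjusted p = 0.424, limma). At 24 h it was 0.11 ± 0.25 (adjusted p = 0.97), and although these groups did not overlap either, the gap between them was smaller than that between the 12 h replicates. The effect at 24 h minus that at 12 h was -0.59 ± 0.36 (unadjusted p = 0.141, adjusted p = 1), so the peak at 12 h was not distinguished from an equal effect at both times. Between 12 h and 24 h with doxycycline Prox1 differed by -1.05 ± 0.25 (2.07-fold lower, unadjusted p = 0.00377, adjusted p = 0.319), the 192nd largest difference of the 16348. In order of level the group with doxycycline at 12 h came first, then 12 h without it, and the 2 groups at 24 h last, which differed by less than the spread at 12 h.

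Liver and heart also use Prox1, and their markers were set beside it. At 12 h the means of 6 hepatoblast and endoderm genes were 4.96 and 5.42 in treated and 4.99 and 5.24 in untreated cells, with 4 of the 6 above 0 and a median difference of 0.08. The 3 measured cardiac genes averaged 6.0 and 6.11 in treated and 5.87 and 6.11 in untreated cells, with a median difference of 0.01. In neither list did a gene pass with doxycycline at either time. With the replicate block 1 did at 24 h, the endoderm and SoxF gene Sox17, at 0.74 (adjusted p = 0.0474). Over both times Sox17, Alb and Hnf4a differed by 0.50, -0.09 and 0.08, and the cardiac genes Tnnt2, Myl7 and Nkx2-5 by 0.16, -0.09 and 0.06. The part of such cells in the Prox1 values was not tested.

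Lyve1 was the most variable member, spanning 3.10 log2 units over the 8 arrays, a wider range than 99.5% of probe sets. It read 7.48 and 6.40 on the untreated arrays at 12 h against 5.24 and 4.78 on the treated ones, and 7.88 and 5.84 on the untreated arrays at 24 h against 6.68 and 6.30 on the treated ones. At 12 h both treated arrays lay below both untreated ones, the difference being -2.24 in replicate 1 and -1.62 in replicate 2. At 24 h the replicates disagreed in sign, at -1.20 and 0.46, and the 2 untreated arrays enclosed the treated ones. The fitted difference at 12 h was -1.93 ± 0.63 (3.81-fold lower, interval -3.40 to -0.46, unadjusted p = 0.0169, adjusted p = 0.342, limma). It was the 48th largest difference of the 16348, but its within-group SD of 0.843 exceeded that of 99.3% of probe sets. With the replicate number as a block, the same difference of -1.93 had a standard error of 0.38 and passed (adjusted p = 0.0492).

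At 24 h the Lyve1 difference was -0.37 ± 0.63 (interval -1.84 to 1.10, adjusted p = 0.95, limma). Over both times it was -1.15 ± 0.50 (adjusted p = 0.318). Without the untreated replicate 2 array at 24 h, the one farthest from the others, it was -1.71 ± 0.29. That was the largest of 14 alternatives, which ran from -1.71 to -0.78. With the replicate block on all arrays the difference over both times did not pass (adjusted p = 0.136). The effect at 24 h minus the effect at 12 h was 1.56 ± 0.89 (adjusted p = 1). From 12 h to 24 h Lyve1 differed by 1.48 ± 0.63 with doxycycline (unadjusted p = 0.049, adjusted p = 0.728) and by -0.08 ± 0.63 without it (adjusted p = 0.994). On these arrays fewer cells bearing a message and less message per cell cannot be told apart.

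Macrophages also carry Lyve1, and their markers were set beside it. The means of 12 macrophage genes were 4.73 and 4.70 in untreated and 4.75 and 4.51 in treated cells at 12 h. At 24 h they were 5.38 and 5.06 in untreated and 4.94 and 4.81 in treated cells. All of the 12 but Csf1r, Cd68 and Itgam lay among the dimmest 33.3% of probe sets, Cd14 and Mrc1 included. The list mean is thus mostly that of dim genes. At 12 h the difference was below 0 for 7 of the 12 and above 0 for 5, with 0 that passed and a median of -0.11. At 24 h it was below 0 for 10 of the 12 and 2 fell, Csf1r by 0.85 ± 0.15 and Cd14, the co-receptor for bacterial lipopolysaccharide, by 1.24 ± 0.16 (adjusted p = 0.0412 and 0.0165, limma). Csf1r lost its call on leaving out any 1 array (adjusted p = 0.0673 to 0.281), and Cd14 without either treated 24 h array (0.11 and 0.154). Both also lost it on all 8 arrays with array weights (adjusted p = 0.202 and 0.118). With the replicate block 1 of the 12 fell and 1 rose at 12 h, and 3 fell and 1 rose at 24 h. The macrophage growth factor receptor Csf1r had already differed by -0.58 ± 0.15 at 12 h (adjusted p = 0.174). The part of such cells in the Lyve1 values was not tested.

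Stab1, a scavenger receptor of sinusoids and macrophages, was higher at 24 h than at 12 h in both treatments, and highest with doxycycline. Its 12 h levels were 6.18 and 6.05 untreated and 6.24 and 6.06 treated, and its 24 h levels 6.85 and 6.38 untreated and 7.40 and 6.99 treated. The 2 groups at 12 h overlapped, and the 24 h groups lay above them and apart from each other. With doxycycline the difference was 0.04 ± 0.21 at 12 h (adjusted p = 0.995, limma) and 0.58 ± 0.21 at 24 h (1.49-fold, interval 0.09 to 1.07, unadjusted p = 0.0267, adjusted p = 0.325). The replicates agreed closely at 24 h, with 0.55 and 0.61. From 12 h to 24 h Stab1 differed by 0.50 ± 0.21 without doxycycline (adjusted p = 0.656) and by 1.05 ± 0.21 with it (2.06-fold, unadjusted p = 0.00137, adjusted p = 0.196). With the replicate block the time difference in treated cells passed (adjusted p = 0.0307), and that of doxycycline at 24 h did not (adjusted p = 0.0739). The effect at 24 h minus that at 12 h was 0.55 ± 0.30 (adjusted p = 1). Of the 12 macrophage genes 11 had a difference above 0 from 12 h to 24 h in either treatment (medians 0.28 untreated and 0.15 treated), and 1 rose, Cd14, in untreated cells. That call was lost under array weights, without the untreated replicate 1 array at 24 h and without either treated 24 h array, where 0 of all probe sets passed over time in untreated cells. At 24 h the mean of that list was lower on treated arrays, where Stab1 was higher. Their part in the Stab1 values was not tested.

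Stab2, the related hyaluronan scavenger of liver and spleen sinusoids, was dim and tightly replicated. At 12 h untreated arrays read 4.52 and 4.50 and treated ones 4.51 and 4.49, and at 24 h untreated arrays read 4.86 and 4.80 and treated ones 4.69 and 4.58. The 24 h arrays lay above the 12 h arrays in both treatments, by 0.32 ± 0.13 without doxycycline (unadjusted p = 0.0374, adjusted p = 0.621, limma) and 0.14 ± 0.13 with it (adjusted p = 0.999). With doxycycline at 24 h it differed by -0.20 ± 0.13 (adjusted p = 0.712), the opposite direction to Stab1, and at 12 h by -0.01 ± 0.13. Its mean lay among the dimmest 33.3% of probe sets, the only member of which this was true.

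Pdpn, which encodes podoplanin, separated the arrays by replicate number rather than by treatment. Its 12 h levels were 6.18 and 6.82 untreated and 6.20 and 6.63 treated, and its 24 h levels 6.20 and 6.36 untreated and 5.70 and 6.46 treated. Every array of replicate 2 lay above every array of replicate 1, the means being 6.57 and 6.07. Pdpn was the only one of the 7 members so separated, and 9.08% of all probe sets were, 4.20% with replicate 2 higher. Its differences with doxycycline were -0.09 ± 0.31 at 12 h and -0.20 ± 0.31 at 24 h (adjusted p = 0.995 and 0.939, limma). Mesenchyme and smooth muscle markers were divided in the same way: 10 of 10 had a higher mean in replicate 2, and 7 of them did not overlap. Their list mean was 6.42 to 6.69 on the replicate 1 arrays and 7.66 to 7.80 on the replicate 2 arrays. Of 4 mesothelial markers, 3 were likewise higher in replicate 2 without overlap. So were 2 of 6 hepatoblast and endoderm genes, of which 4 had a higher and 2 a lower mean there. All 3 cardiac genes had a higher mean in replicate 2, with overlap. The part of mesenchymal cells in the Pdpn values was not tested.

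**Figure D2:**
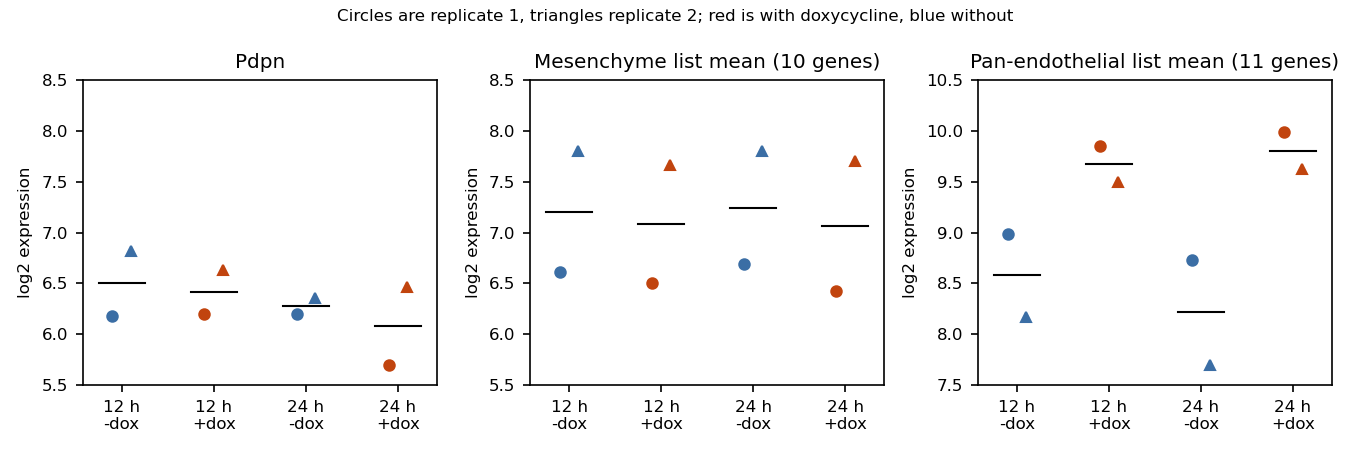
Log2 expression (y axes) of Pdpn and the mean log2 expression of the mesenchyme and pan-endothelial lists on each array, by time and treatment (x axes), with circles for replicate 1, triangles for replicate 2 and bars for the mean. Pdpn and the mesenchyme list mean are higher on every replicate 2 array, while the pan-endothelial list mean is lower in replicate 2 within each group and higher with doxycycline.

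Pan-endothelial markers and Aplnr had lower means in replicate 2. All 11 had a lower mean in replicate 2, as 56.8% of all probe sets did, with a median of -0.59. The arrays of the 2 replicates overlapped for each of the 11 and for Aplnr. Their mean was 8.99 and 8.17 at 12 h and 8.73 and 7.70 at 24 h in untreated cells. In treated cells it was 9.85 and 9.50 at 12 h, and 9.99 and 9.62 at 24 h. Thus the mean of the endothelial list separated treated from untreated arrays, and Aplnr did not. This sets a mean of 11 genes beside 1 gene. Taken singly, Eng, Erg and Cldn5 of the list did not separate these arrays either.

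Across time, in the fit without the replicate block, 0 of 7 members passed without doxycycline, against 0.147% of all probe sets. With doxycycline 0 of 7 passed, against 0.184%, while Stab1 passed with the block. An unadjusted p under 0.05 was found for 2 of 7 without doxycycline (Stab1 and Stab2, against 7.46% of all) and for 3 of 7 with it (Prox1, Lyve1 and Stab1, against 6.83%). The groups at 12 h and 24 h did not overlap for 3 of 7 members without doxycycline, against 28.9% of all probe sets. With it this held for 5 of 7, against 39.1%. In treated cells Aplnr and Prox1 were lower at 24 h, and Lyve1, Stab1 and Stab2 higher. Between treatments the groups did not overlap for 2 of 7 at 12 h, against 44.0%, for 3 of 7 at 24 h, against 31.4%, and for 0 of 7 over both times, against 9.02%. The 2 time comparisons share no arrays with each other, but each shares its arrays with the doxycycline comparisons.

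**Figure D3:**
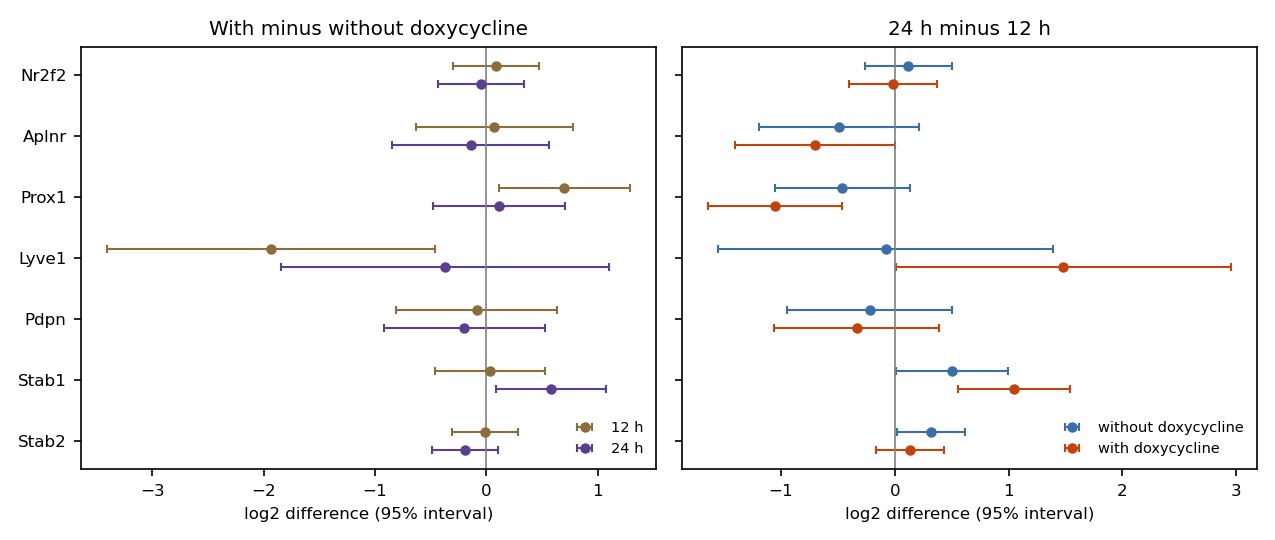
Log2 differences (x axis) of the 7 genes with 95% intervals from limma without the replicate block. They are for doxycycline at 12 h and 24 h (left) and for 24 h against 12 h in each treatment (right). Intervals leave out 0 for Lyve1 and Prox1 at 12 h and Stab1 at 24 h on the left, before any adjustment for the number of probe sets tested.

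Other genes of the venous and lymphatic programmes were counted from lists. Over both times, 2.61% of all probe sets rose and 1.81% fell with doxycycline. Of 6 other venous genes 1 rose, Ephb4, the receptor that marks veins and binds the arterial ligand ephrin-B2. Untreated arrays read 8.82 and 8.20 at 12 h and 8.45 and 7.77 at 24 h, and treated ones 9.95 and 9.68 at 12 h and 9.82 and 9.45 at 24 h. All 4 treated arrays lay above all 4 untreated ones, by 1.42 ± 0.20 (2.67-fold, adjusted p = 0.00642, limma). At the single times it did not pass (adjusted p = 0.121 at 12 h and 0.0595 at 24 h), and with the replicate block it did (0.00894 and 0.00413). The median of that list was -0.20. Selp (P-selectin) and Ackr1, an atypical chemokine receptor of venules, differed by -0.37 ± 0.20 and -0.44 ± 0.30 (adjusted p = 0.452 and 0.604).

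In the VEGF-C axis 1 of 5 measured genes rose, Kdr (VEGFR-2), by 1.38 ± 0.29 (adjusted p = 0.0377, limma). Vegfc, the ligand of VEGFR-3, read 7.32 and 6.97 untreated against 7.49 and 8.0 treated at 12 h, and 7.75 and 6.74 untreated against 9.06 and 8.76 treated at 24 h. The difference was 1.67 ± 0.34 at 24 h (3.17-fold, adjusted p = 0.071) and 1.13 ± 0.29 over both times (adjusted p = 0.0758), so neither passed. Flt1 (VEGFR-1) differed by 0.82 ± 0.21 over both times (adjusted p = 0.076). With the replicate block Vegfc passed at 24 h and Flt1 over both times (adjusted p = 0.0341 and 0.0363). The call of Kdr was lost on leaving out any 1 of 5 arrays, with adjusted p = 0.0652 to 0.121: the untreated replicate 2 array at 12 h, and each treated array.

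Among 10 other lymphatic genes 2 rose over both times and 0 fell, with a median of 0.23. With the replicate block 3 rose and 1 fell. Hhex, a homeobox gene of endothelium and liver that acts upstream of Prox1 and Flt4 in lymphatic development, rose by 1.39 ± 0.19 (adjusted p = 0.00531, limma). Nfatc1, a transcription factor of lymphatic patterning and valves, rose by 0.54 ± 0.12 (adjusted p = 0.0403). That call was lost without any 1 of the 12 h arrays or of the treated 24 h arrays (adjusted p = 0.0718 to 0.128). Reln, which lymphatic endothelium secretes, differed by -0.43 ± 0.10 (adjusted p = 0.0548, and 0.0255 with the replicate block). At 12 h Hhex was the 1 gene of the list that passed, at 1.73 ± 0.22 (adjusted p = 0.0228), a call lost without any 1 of the 12 h arrays or of the treated 24 h arrays (adjusted p = 0.0528 to 0.16).

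Of 7 other sinusoidal and hyaluronan genes 2 rose over both times. Oit3, a secreted protein of liver sinusoids, rose by 2.37 ± 0.29 (5.17-fold, adjusted p = 0.00342, limma). Its levels were 6.15 to 7.0 on the 4 untreated arrays and 8.52 to 9.67 on the 4 treated ones. Mrc1, the mannose receptor of sinusoids, lymphatics and macrophages, rose by 1.11 ± 0.18 (adjusted p = 0.0129), from 4.25 to 4.82 untreated to 5.28 to 5.92 treated. Mrc1 therefore ran against Lyve1, which was lower at 12 h, and against Csf1r, which fell by 0.72 ± 0.11 over both times (adjusted p = 0.00799). The gene of factor VIII, F8, differed by 0.75 ± 0.28 (adjusted p = 0.231, and 0.0128 with the replicate block). In the podoplanin receptor list, which holds the CLEC-2 gene and its signalling partners, 0 of 4 passed. Plcg2, Syk and Lcp2 of that list differed by 0.41 ± 0.17, -0.36 ± 0.19 and -0.31 ± 0.31 (adjusted p = 0.273, 0.444 and 0.772).

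Arterial and pan-endothelial genes gave larger counts. Over both times 7 of 10 arterial genes rose, with a median of 1.54, and 6 of 11 pan-endothelial genes, with a median of 1.37. The arterial gap junction gene Gja4 rose by 3.81 ± 0.39, the ligand gene Efnb2 by 1.93 ± 0.16 and the Notch target Hey1 by 2.38 ± 0.21 (adjusted p = 0.00157, 0.00107 and 0.00119, limma). The other arterial genes that rose were the Notch receptor gene Notch1 (1.31), its ligand gene Dll4 (1.93), the target Hey2 (0.90) and the receptor gene Acvrl1 (1.11). Gja5, a second gap junction gene, passed at 24 h alone, at 3.0 ± 0.31 (adjusted p = 0.0102). With array weights on all arrays Gja5 did not pass (adjusted p = 0.0653), and the arterial count at 24 h went from 6 to 1. At the single times, calls of arterial genes, that of Gja5 included, were also lost in some fits that left out 1 array. The pan-endothelial genes that rose were Kdr, the junction genes Pecam1 (1.16), Cdh5 (1.78) and Esam (1.94), the secreted factor gene Egfl7 (1.40) and the phosphatase gene Ptprb (2.51). Leaving out 1 array gave 6 to 7 arterial and 4 to 7 pan-endothelial genes, and the replicate block 8 and 10. The call of Acvrl1 was lost in 5 of those fits (adjusted p = 0.0608 to 0.103) and that of Pecam1 in 1 (0.0578). The venous and lymphatic members had 0 of 7 and a median of -0.04 in the same fit. A test of the members against the arterial list was not run, so the counts stand side by side as descriptions. Of the lists with other cell types, 0 of 10 mesenchyme, 0 of 4 mesothelial, 0 of 6 hepatoblast and 0 of 3 cardiac genes passed over both times, and 1 of 12 macrophage genes rose (Mrc1) and 1 fell (Csf1r). Fcgr1, an Fc receptor gene of the macrophage list, differed by -0.29 (adjusted p = 0.164). With the replicate block 2 of 12 macrophage genes fell. Postn, a matrix gene of the mesenchyme list, differed by -0.95 ± 0.64 (adjusted p = 0.587), and passed with the replicate block (adjusted p = 0.00123). Dcn and Col1a2 of that list differed by -0.23 and 0.18, and the mesothelial genes Upk1b, Wt1 and Msln by -0.29, -0.12 and 0.07. Of 6 precursor markers 1 fell, the myeloid factor Spi1, by 0.95 ± 0.21 (adjusted p = 0.0436), a call lost without any 1 of 6 arrays (0.085 to 0.139). With the replicate block the erythroid factor gene Gata1 fell as well, by 0.70 (adjusted p = 0.00759, and 0.071 without the block), and at 24 h Ptprc (CD45), at -1.34, passed (0.0173, and 0.273 without the block).

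**Figure D4:**
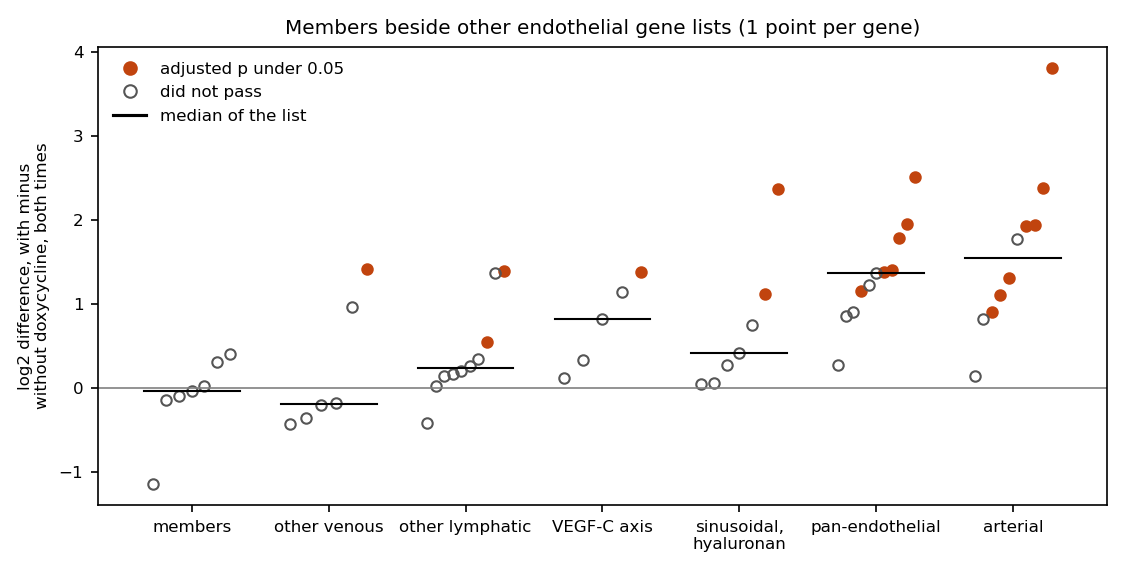
Log2 difference with minus without doxycycline over both times (y axis) for each gene of 7 lists (x axis), with filled points for an adjusted p under 0.05 and bars for the list medians. The members scatter around 0 with Lyve1 lowest at -1.15 and no filled point, and the medians of the pan-endothelial and arterial lists are 1.37 and 1.54.

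Genes with the nearest profiles were found for the 5 members that spanned at least 1 log2 unit, by the root mean square difference of mean-centred log2 values over the 8 arrays. For Prox1 they were Nrg1, Pls3 and Notch2 (0.154, 0.167 and 0.174), of which Notch2 read 9.02 and 9.47 in treated cells at 12 h and 8.06 to 8.67 on the 6 other arrays. For Aplnr they were Gbp2, the SoxF gene Sox18 and Zbed5 (0.124, 0.155 and 0.176). For Stab1 they were Khnyn, the hexokinase gene Hk2 and Cfap20dc (0.11, 0.122 and 0.125). For Pdpn they were Sgms2, the muscle actin gene Acta1 and Dlg5 (0.098, 0.099 and 0.112). Lyve1 had no gene within 0.3, the nearest being Sla2, Sprr2d and Slc24a5 (0.401, 0.406 and 0.428). Prox1 had 107 genes within 0.3, Stab1 227, Aplnr 717 and Pdpn 2682. The distance was not scaled for range, so these counts depend on how far a member varied. The ranges were 3.10 for Lyve1, 1.57 for Prox1, 1.35 for Stab1, 1.14 for Aplnr and 1.12 for Pdpn. The counts therefore do not show that the Lyve1 profile was unusual in shape. All these profiles share the same 8 arrays and their replicate differences, and are given as a description.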

How the data were processed

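The authors deposited log2 expression values, 1 column per array, made with RMA in Affymetrix Power Tools per the submitters' processing notes. The genome build is not given in the sources used here, nor are tool versions. Of 16348 probe sets, 14785 were annotated with 1 gene symbol, 950 with several and 613 with none, and only the first kind named a gene. Groups and replicate numbers came from the sample titles, and no pair of arrays held identical values. limma 3.58.1 in R 4.3.3 (lmFit, eBayes) fitted 1 mean per group over all 8 arrays without a filter. Doxycycline over both times came from a model with terms for doxycycline and time. Code was tested on simulated data. Members and lists were chosen with earlier results of these data known. Named were all members, list genes that passed with doxycycline, the up to 3 per list with the smallest p over both times, 3 nearest profiles for members spanning at least 1 log2 unit, and Sox7. Itga2b and Cd34 were named for the sorting gate. Within groups, deviations of same-numbered arrays correlated across probe sets, with r between 0.298 and 0.428 for the 6 possible group pairings. The labels do not say what the number marks, so the main fit left it out and the block was an alternative. Standard errors of the main fit thus include differences between replicates. Blocked values stand beside many, not all, of the printed results whose call they change. The number of arrays limits the precision.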

Additional observations from a re-analysis of the deposited data

How the results depend on the processing

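All 7 members kept their side of the threshold in every comparison under repeated quantile normalization, centring on array medians, leaving out the dimmest 33.3% of probe sets (which removed Stab2) and eBayes with an intensity trend. Of 588 member values under alternatives, 584 kept their call, 4 came to pass and 0 reversed. The 4 included Lyve1 at 12 h and Stab1 over time in treated cells, both with the replicate block. There 1 member passed in each comparison, beside 467 and 123 of all probe sets. The others were Lyve1 over both times with array weights (1 passing, -1.68, adjusted p = 0.0392, limma) and without the outlying array. The replicate block changed no other member's call. Leaving out 1 array gave 0 to 1 passing members over both times and 0 elsewhere. Lyve1 at 12 h ranged from -2.47 to -1.39 (adjusted p = 0.0492 to 0.97). With doxycycline the fitted sign changed in at least 1 alternative for Nr2f2, Aplnr and Pdpn at both times, Stab1 at 12 h and Lyve1 at 24 h, and Stab2 at 12 h came to 0 in 2. None of these passed. The second Nr2f2 probe set changed no call.

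Counts over all probe sets moved more. At 12 h the count was 151, and 241, 239, 495 and 467 with quantile normalization, the dim filter, array weights and the replicate block. At 24 h it was 235, and 415, 367, 18 and 677 in that order. Over time without doxycycline it was 24, and 61, 51, 0 and 130, with 44 under the trend. Over time with doxycycline it was 30, and 49, 58, 88 and 123, with 62 under the trend. Over both times 723 became 1231 with the replicate block. Leaving out 1 array, which leaves a group with 1 sample assumed to vary like the others, gave 7 to 201 at 12 h, 4 to 297 at 24 h, 0 to 36 and 0 to 29 over time without and with doxycycline, and 377 to 730 over both times. The difference between the times had 0 calls in each, with 505 probe sets at an unadjusted p under 0.05 in limma. The cause was not tested beyond the fewer probe sets or arrays that some alternatives hold by construction.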
